A study of Mus musculus with 12 samples.

Results

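Tgm1, Tgm2, Tgm3, Tgm5 and Tgm7 encode transglutaminases, and they were chosen by name as the transglutaminases described here in the epidermis. All 5 have a row in the deposited counts, among 14533 genes listed. Scraped dorsal epidermis of 12 C57BL/6 mice was sequenced, with 1 library per mouse. The 6 Pparg-/-epi mice carried Pparg (flox/flox) and 1 copy of a Cre driven by the cytokeratin 14 promoter (Cre+/-), which is active in basal keratinocytes and in the hair follicle and sebaceous gland that derive from them. The 6 WT mice carried the same Pparg (flox/flox) alleles without the Cre (Cre-/-). Both groups were untreated, and the skin was non-lesional. The WT group held 3 females and 3 males and the Pparg-/-epi group 4 females and 2 males, and each group spanned 8 to 13 weeks of age by the labels, with which other ages given by the study are in conflict. Scraping stopped at the vessel bed below the epidermis, so a library can hold RNA of dermal cells as well as of keratinocytes.

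Transglutaminases are calcium-dependent enzymes that join glutamine and lysine side chains of proteins into isopeptide bonds. In the upper epidermis they weld involucrin, loricrin, small proline-rich proteins and other substrates into the cornified envelope, the insoluble shell that replaces the plasma membrane of a dying keratinocyte. Tgm1 is anchored to the membrane and is the main envelope cross-linking enzyme of the granular layer, Tgm3 is a cytosolic proenzyme of epidermis and hair follicle that is cut by proteases to become active, Tgm5 is a further enzyme of the cornifying epidermis, Tgm2 is the widely expressed tissue transglutaminase of endothelium and connective tissue, and Tgm7 is a family member of which little is known.

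All 5 enzymes carry a catalytic cysteine, and the 27 bases that code for it and its neighbours are shown because they mark what the family shares and how far the genes can be told apart by their reads. The capitals mark the cysteine codon, and the bases are from GENCODE M21 transcripts on GRCm38, the same assembly as mm10, written 5′ to 3′ on the coding strand.
Tgm1: ccctacggccaaTGCtgggtctttgcc
Tgm2: aagtacgggcagTGCtgggtgtttgca
Tgm3: caatttggccagTGCtgggtctttgct
Tgm5: cgctatgggcaaTGCtgggtctttgct
Tgm7: aaatatggacagTGTtgggtctttgct
The stretch lies at chr14:55709410-55709436 in exon 7 of 15 of Tgm1 on the minus strand, at chr2:158131347-158131373 in exon 6 of 13 of Tgm2 on the minus strand, and at chr2:130029760-130029786 in exon 6 of 13 of Tgm3 on the plus strand. In Tgm5 it lies at chr2:121070748-121070774 in exon 6 of 13, and in Tgm7 at chr2:121103843-121103869 in exon 5 of 12, both on the minus strand. Each stretch is coding and falls within an exon of the deposited table. Between any 2 members, 19 to 23 of the 27 bases were identical, with the fewest between Tgm1 and Tgm7 and the most between Tgm1 and Tgm5 and between Tgm3 and Tgm7. Over stretches of 75 bases, the read length, none of the transcript sequence of Tgm3, Tgm5 or Tgm7 occurred in a transcript of another gene (0%). The share was 3.38% for Tgm1, with Gm49067, and 17.1% for Tgm2, with Gm20412 and Rprd1b, the largest of the 5. Stretches were compared among transcripts on either strand and not by their place in the genome, so the effect on the counts was not tested.

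Total counts were between 10120840 and 18851255 per library, and 1 count was worth 0.0520 to 0.107 CPM (counts normalized by TMM to a common library size). Counts of Pparg ranged from 5 to 269 in WT and from 16 to 107 in Pparg-/-epi libraries (log2 fold change -0.10, SE 0.71, adjusted p = 0.949). The floxed segment is a part of the gene and the counts are summed over all its exons, so Pparg counts are no check of the labels. Keratinocyte markers were abundant in every library, with 7097 to 24286 CPM of Krt10, the main suprabasal keratin. WT replicate 2 stood apart, with the lowest summed CPM of 5 suprabasal keratinocyte markers (12344) and the highest sums of endothelial and macrophage markers among WT mice. WT replicate 5 stood apart in skeletal muscle markers, with a sum of 9431 CPM against 10.7 to 247 CPM in the other WT mice, and had the highest adipocyte marker sum (565 CPM). The name of each mouse in the counts holds a number that is called its breeding number here, though the names do not say what it stands for. Of the WT mice 4 share breeding number 226, which no Pparg-/-epi mouse has. Breeding number 222 alone holds both genotypes, in WT replicate 2 and Pparg-/-epi replicate 10. A fit with breeding number as a term takes its genotype effect from these 2 mice alone. The study calls the WT mice sibling controls, but nothing in the labels ties mice of the 2 genotypes into pairs. The p-values measure the spread between these 12 mice.

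Tgm3 was higher and Tgm7 lower in Pparg-/-epi mice, while Tgm1, Tgm5 and Tgm2 did not pass the test. A gene was called altered when its adjusted p was under 0.05 and its log2 fold change was at or beyond 0.6 in either direction. By that rule 2 of the 5 transglutaminases were altered, beside 10.3% of all genes tested (1493 of 14533). Tgm3 and Tgm7 were also the 2 of 5 whose groups did not overlap, as in 7.9% of all genes, and 4 of 5 had an unadjusted p under 0.05, as did 29.5% of all genes. Since the RNA is from bulk tissue, fewer cells of a type and less RNA per cell cannot be told apart.

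**Figure D1:**
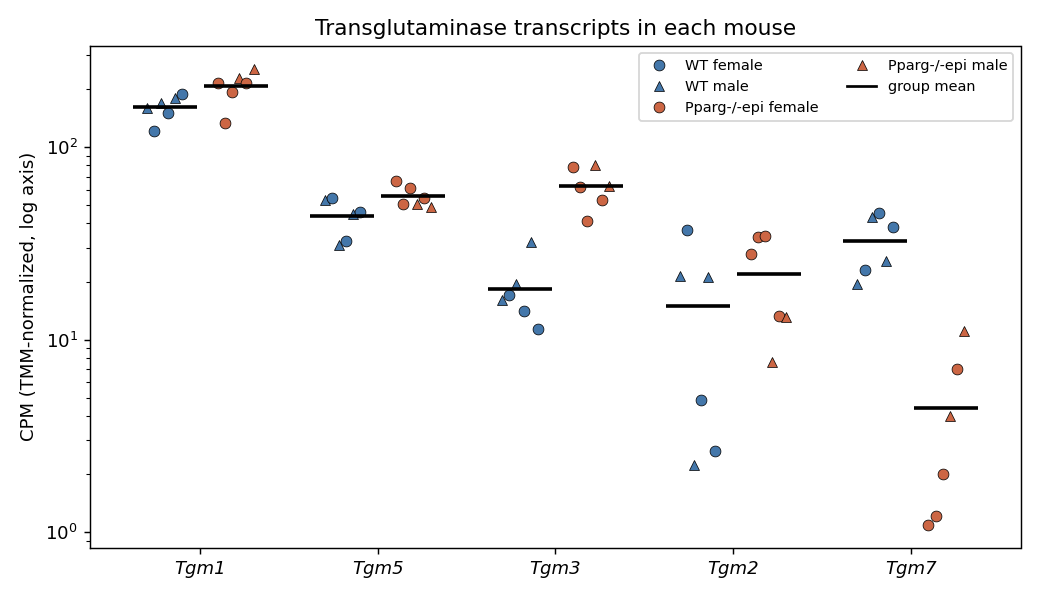
CPM of each transglutaminase in each mouse on a log axis, with WT in blue, Pparg-/-epi in orange, females as circles, males as triangles and the group mean as a line. The Pparg-/-epi mice lie above all WT mice for Tgm3 and below all WT mice for Tgm7, and the groups overlap for Tgm1, Tgm5 and Tgm2.

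Tgm3, the epidermal and hair follicle enzyme, lies at chr2:130012340-130050399 on the plus strand. Its CPM was lowest at 11.3 (WT replicate 6), with a median of 16.5 and a highest value of 31.9 (WT replicate 5) in WT mice. The Pparg-/-epi mice ran from 41.3 (replicate 9) over a median of 62.0 to 80.8 (replicate 10). The groups did not overlap, and the lowest Pparg-/-epi mouse was above the highest WT mouse, a separation in that direction seen for 3.95% of all genes. The mean was 18.3 ± 7.22 CPM (SD, n = 6) in WT and 62.9 ± 15.0 CPM (SD, n = 6) in Pparg-/-epi mice, from 180 to 404 and 588 to 1504 counts. Tgm3 rose 3.44-fold, by 1.78 on the log2 scale (SE 0.24, 95% interval 1.26 to 2.30, adjusted p = 6.21e-04). It ranked at 191 by log2 fold change among the 754 genes that were higher (5.19% of all genes tested). The rise was past the threshold without any 1 mouse (1.68 to 2.02), in the 7 female mice (2.05, adjusted p = 0.0116) and without the WT mice of breeding number 226 (1.94, adjusted p = 0.00653), but not in the 5 male mice (1.66, adjusted p = 0.119), with breeding number as a term beside genotype (2.25, adjusted p = 0.0870) or when libraries were scaled to Krt1 and Krt10 (1.39, adjusted p = 0.0656). Without WT replicate 5, the WT mouse with the most Tgm3 and muscle RNA, it was 2.02 (adjusted p = 2.15e-04).

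Tgm7 lies at chr2:121093589-121109791 on the minus strand. In WT mice its CPM was lowest at 19.3 (replicate 1), with a median of 31.9 and a highest value of 45.3 (replicate 4). The Pparg-/-epi mice ran from 1.09 (replicate 7) over a median of 3.00 to 11.1 (replicate 12). Every Pparg-/-epi mouse was below every WT mouse, a separation in that direction seen for 3.95% of all genes. The mean was 32.5 ± 11.3 CPM (SD, n = 6) in WT and 4.40 ± 3.97 CPM (SD, n = 6) in Pparg-/-epi mice, from 302 to 674 and 20 to 129 counts. Tgm7 fell by 2.91 on the log2 scale, 7.50-fold (SE 0.54, 95% interval -4.07 to -1.74, adjusted p = 0.00390). It ranked at 47 by log2 fold change among the 739 genes that were lower (5.08% of all genes tested).

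The low level of Tgm7 was itself uneven among Pparg-/-epi mice, which spanned 10.1-fold, against 2.35-fold in WT mice. Among Pparg-/-epi mice Tgm7 rose with breeding number, with 1 or 2 mice per number. Tgm7 was at 1.09 CPM in the mouse of number 192, at 1.21 and 2.00 CPM in those of number 195, at 3.99 CPM in that of number 222, and at 7.05 and 11.1 CPM in those of number 225. In WT mice it was at 25.4 to 45.3 CPM in the 4 mice of number 226 and at 19.3 and 23.0 CPM in the other 2. RNA integrity numbers in Pparg-/-epi mice were 8.6 at number 192, 8.5 and 7.7 at 195, 7.7 at 222, and 5.7 and 7.1 at 225. WT mice had 5.9 to 7.1 at number 226, and the other 2 had 7.4 and 8.6. Breeding number and RNA integrity cannot be told apart here. With RNA integrity as a covariate Tgm7 was at -2.74 (adjusted p = 0.00173). In breeding number 222, WT replicate 2 had 23.0 CPM and Pparg-/-epi replicate 10 had 3.99 CPM, a log2 difference of -2.53 with no replicate. WT replicate 2 is the mouse that stood apart in its suprabasal, endothelial and macrophage marker sums. The fit with breeding number as a term was chosen after seeing the data. Its genotype effect rests on these 2 mice, so it repeats their difference, and its spread rests on 5 residual degrees of freedom. In that fit Tgm7 was at -2.52 (adjusted p = 0.0494). Without the WT mice of number 226, which leaves WT replicates 1 and 2, the log2 fold change was -2.27 and missed the threshold (adjusted p = 0.138). It also missed the threshold in male mice alone (-1.98, adjusted p = 0.210). Leaving out any 1 mouse gave -3.44 to -2.72, with an adjusted p of at most 0.0105.

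Tgm1, the main envelope enzyme, lies at chr14:55700009-55713492 on the minus strand. Its CPM ranged from 121 to 187 in WT mice (median 165) and from 132 to 254 in Pparg-/-epi mice (median 214). The groups overlapped through Pparg-/-epi replicate 8, while the remaining Pparg-/-epi mice had at least 193 CPM. The lowest mouse of each group, WT replicate 2 and Pparg-/-epi replicate 8, was also the lowest of its group in the summed suprabasal markers, at 12344 and 20219 CPM. The mean was 161 ± 23.6 CPM (SD, n = 6) in WT and 206 ± 41.3 CPM (SD, n = 6) in Pparg-/-epi mice. The fitted log2 fold change was 0.36 (SE 0.15, adjusted p = 0.129), with a 95% interval of 0.03 to 0.68 that reaches past the size threshold. It was -0.02 when libraries were scaled to Krt1 and Krt10, 0.56 without the WT mice of breeding number 226 (adjusted p = 0.237) and 0.91 with breeding number as a term (adjusted p = 0.103). With RNA integrity as a covariate it was 0.47 (adjusted p = 0.0302). Without Pparg-/-epi replicate 8 it was 0.44 (adjusted p = 0.0274). Both are under the size threshold.

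Tgm5 is the neighbour of Tgm7, at chr2:121046111-121085759 on the minus strand. Its CPM ranged from 31.0 to 54.6 in WT mice (median 45.3) and from 48.8 to 66.6 in Pparg-/-epi mice (median 52.6). The groups overlapped, and WT replicates 1 and 2 lay inside the range of Pparg-/-epi mice. The mean was 43.7 ± 9.98 CPM (SD, n = 6) in WT and 55.4 ± 7.06 CPM (SD, n = 6) in Pparg-/-epi mice. The fitted log2 fold change was 0.34 (SE 0.15, 95% interval 0.02 to 0.66, adjusted p = 0.145), and -0.16 when scaled to Krt1 and Krt10. It was 0.05 without the WT mice of breeding number 226 (adjusted p = 0.870) and -0.10 with breeding number as a term (adjusted p = 0.865). In the Krt1 and Krt10 scaling the median log2 fold change over all genes was -0.43, against -0.01 with TMM, and Krt1 itself was at 1.02 (adjusted p = 0.101) with TMM, so Tgm1 and Tgm5 were above the median of all genes in both.

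Tgm2, the tissue transglutaminase, lies at chr2:158116405-158146392 on the minus strand and varied most of the 5 among WT mice. Its CPM spanned 2.24 to 36.9 in WT mice (median 12.9) and 7.65 to 34.4 in Pparg-/-epi mice (median 20.6). The range of WT mice contained that of Pparg-/-epi mice. The mean was 14.8 ± 14.0 CPM (SD, n = 6) in WT and 21.8 ± 11.8 CPM (SD, n = 6) in Pparg-/-epi mice (log2 fold change 0.55, SE 0.65, adjusted p = 0.631). The 95% interval of -0.85 to 1.95 covers falls as well as rises larger than the size threshold. The value was 1.06 without WT replicate 2, and it was below 0 in male mice, without the WT mice of breeding number 226, with breeding number as a term and when scaled to Krt1 and Krt10.

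**Figure D2:**
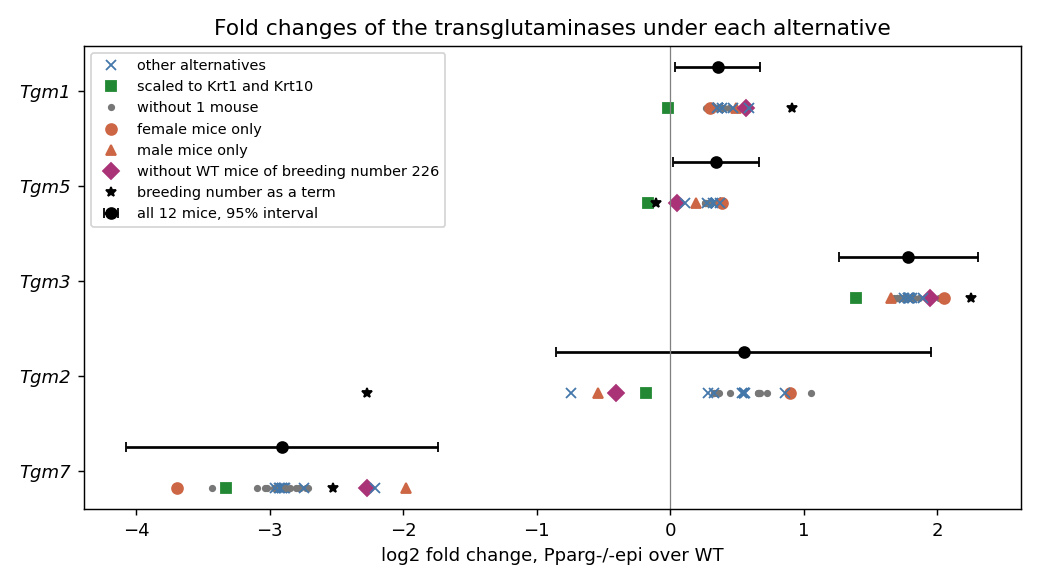
Log2 fold change of each transglutaminase, Pparg-/-epi over WT, with its 95% interval in black for all 12 mice and below it the value under each alternative. The values of Tgm3 all lie above 0 and those of Tgm7 all below 0, from 1.39 to 2.25 and from -3.69 to -1.98, while Tgm1, Tgm5 and Tgm2 fall on both sides of 0.

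No transglutaminase differed in its genotype effect between the sexes at an adjusted p under 0.05. The interaction was largest for Tgm7, with a log2 difference of 1.73 between male and female effects (SE 0.94, adjusted p = 0.895, unadjusted p = 0.0931). In females Tgm7 was at 35.5 ± 11.4 CPM (SD, n = 3) in WT and 2.84 ± 2.84 CPM (SD, n = 4) in Pparg-/-epi mice, and in males at 29.4 ± 12.6 CPM (SD, n = 3) in WT and 7.54 ± 5.01 CPM (SD, n = 2) in Pparg-/-epi mice. The groups did not overlap within either sex. With 2 male Pparg-/-epi mice the interaction could be seen only if large, and over all genes 0 interactions passed at an adjusted p under 0.05 and 741 (5.1%) at an unadjusted p under 0.05.

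To compare levels between genes, CPM was divided by the exon length of each gene in kilobases (RPKM). Tgm1 was the most abundant transglutaminase in both genotypes, at 53.6 ± 7.85 RPKM (SD, n = 6) in WT and 68.5 ± 13.7 RPKM (SD, n = 6) in Pparg-/-epi mice. Tgm5 came next, at 17.2 ± 3.94 and 21.9 ± 2.79 RPKM. The order below them differed between the genotypes. In WT mice Tgm7 stood at 15.3 ± 5.30 RPKM, Tgm3 at 4.42 ± 1.74 RPKM and Tgm2 at 4.18 ± 3.94 RPKM. In Pparg-/-epi mice Tgm3 stood at 15.2 ± 3.61 RPKM, Tgm2 at 6.13 ± 3.33 RPKM and Tgm7 at 2.07 ± 1.87 RPKM.

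Some neighbours in this order were separated in every mouse and others were not. In WT mice Tgm1 was above Tgm5 and Tgm7 above Tgm3 in 6 of 6 mice, without overlap of their ranges. Tgm5 was above Tgm7 in 4 of 6 WT mice and Tgm3 above Tgm2 in 4 of 6, so these neighbours did not differ beyond their spread. In Pparg-/-epi mice Tgm1 was above Tgm5, Tgm5 above Tgm3 and Tgm3 above Tgm2 in 6 of 6 mice each, although the ranges of Tgm5 and Tgm3 overlapped between mice. Tgm2 was above Tgm7 in 5 of 6 Pparg-/-epi mice.

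Of the RPKM summed over the 5 genes, Tgm7 made up 16.2 ± 5.83% (SD, n = 6) in WT and 1.75 ± 1.46% (SD, n = 6) in Pparg-/-epi mice, and Tgm3 made up 4.64 ± 1.62% and 13.4 ± 3.06%. The share of Tgm1 was 56.3 ± 5.27% in WT and 59.7 ± 6.01% in Pparg-/-epi mice, and that of Tgm5 was 18.3 ± 4.55% and 19.4 ± 3.00%. Summed over the 5 genes, RPKM was 94.7 ± 6.47 (range 87.2 to 103) in WT and 114 ± 14.1 (range 89.0 to 128) in Pparg-/-epi mice, and these ranges overlapped.

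**Figure D3:**
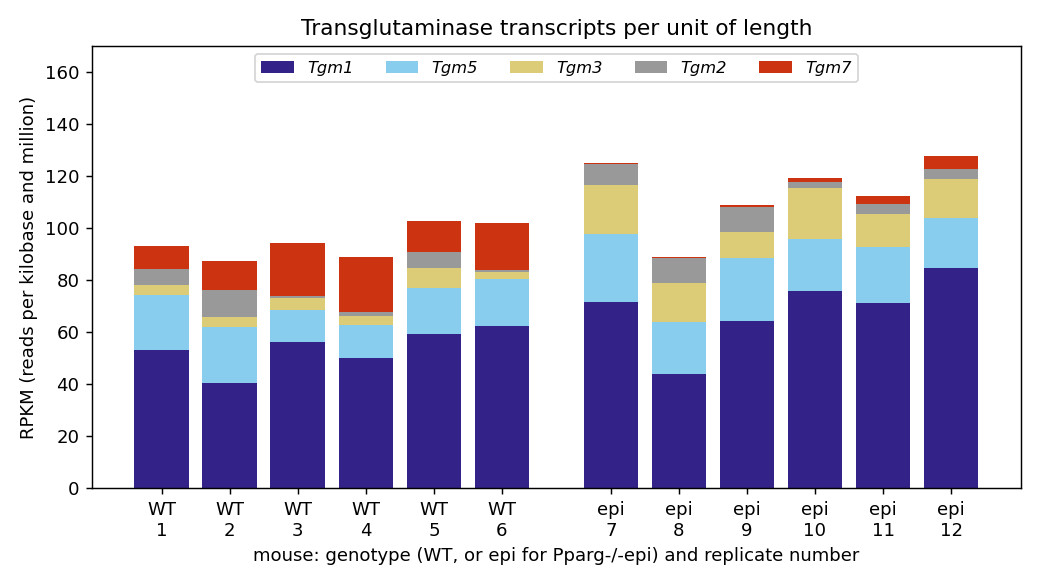
RPKM of the 5 transglutaminases stacked for each mouse, with replicate numbers under the bars. Tgm1 makes up 46.2 to 66.1% of each bar, the segment of Tgm3 is wider in the Pparg-/-epi mice and that of Tgm7 is narrow or barely visible there.

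Ratios of 2 transcripts within a mouse do not depend on how libraries were scaled. Of 10 pairs, 6 differed between the genotypes at an adjusted p under 0.05 (exact permutation test, two-sided, Benjamini-Hochberg over the 10 pairs), and in 4 of them the groups did not overlap. Each of the 6 pairs holds Tgm3 or Tgm7, so they are not independent of the calls of these 2 genes from the same counts. The share of other gene pairs that differ was not tested. The log2 ratio of Tgm3 over Tgm7 was -0.83 ± 0.84 (SD, n = 6) in WT and 4.30 ± 1.43 (SD, n = 6) in Pparg-/-epi mice. The difference of 5.13 (SE 0.68) had an exact permutation p of 0.00216, the smallest that 6 against 6 mice can give, and an adjusted p of 0.00541.

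Tgm1 over Tgm7 and Tgm5 over Tgm7 were higher in Pparg-/-epi mice by 3.65 (SE 0.52) and 3.68 (SE 0.69), and Tgm1 over Tgm3 had a difference of -1.48 (SE 0.28), each with the same p and adjusted p and no overlap. Tgm3 over Tgm5 was higher by 1.46 (SE 0.31) and Tgm2 over Tgm7 by 4.39 (SE 1.25), with an adjusted p of 0.00722 by the exact permutation test and with overlap. The ratio of Tgm1 over Tgm5 was close to level between the genotypes, at 1.90 ± 0.46 (SD, n = 6) in WT and 1.88 ± 0.37 (SD, n = 6) in Pparg-/-epi mice, a difference of -0.03 (SE 0.24, exact permutation p = 0.918). The 3 remaining pairs, all with Tgm2, had adjusted p-values of 0.455 to 0.457 (exact permutation test). In the 7 female mice alone the 6 differences kept their direction, but 3 against 4 mice cannot go below p = 0.0571 in the exact permutation test.

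**Figure D4:**
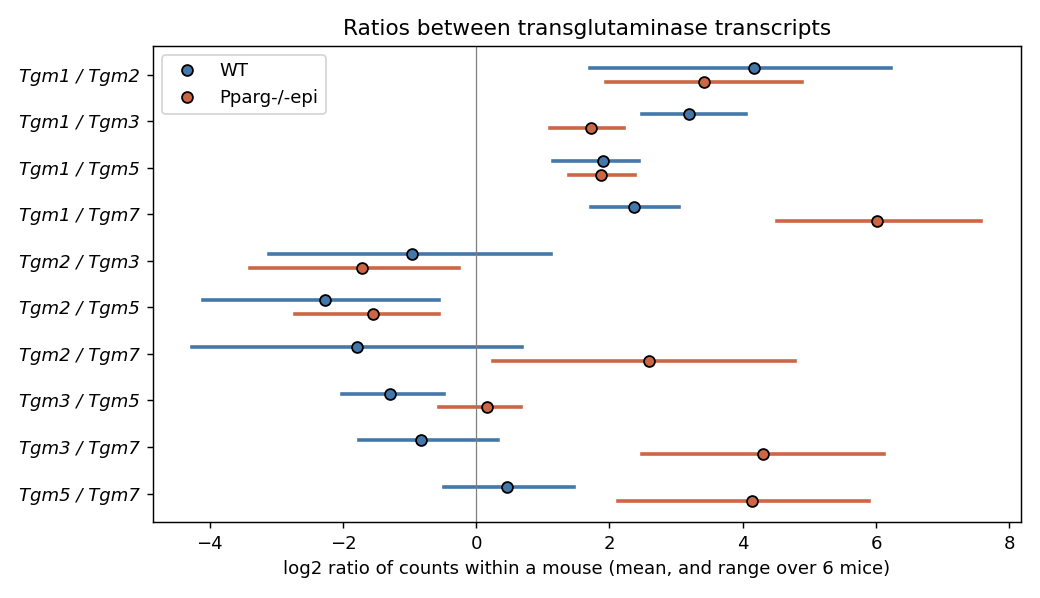
Log2 ratio of the counts of 2 transglutaminases within a mouse, with the mean as a point and the range over 6 mice as a line, WT in blue and Pparg-/-epi in orange. The lines are apart for Tgm1 over Tgm3 and for Tgm1, Tgm3 and Tgm5 over Tgm7, and nearly coincide for Tgm1 over Tgm5.

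Within each genotype the 5 transcripts showed no relation to one another past the correction. Over 20 relations (10 pairs in 2 genotypes, 6 mice each), the lowest adjusted exact permutation p was 0.361 for Pearson's r and 0.389 for Spearman's rho. The 1 relation at an unadjusted p under 0.05 was that of Tgm5 and Tgm7 in WT mice (r = -0.873, exact permutation p = 0.0278).

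The genes most like each transglutaminase were taken as those with the highest Pearson correlation of log2 CPM over the 12 mice after the mean of each genotype was subtracted. For Tgm2 these were Ptprb (r = 0.99), Mmrn2 (r = 0.98) and Adgrf5 (r = 0.98), which encode a vascular endothelial phosphatase, an endothelial matrix protein and a receptor found on endothelium. For Tgm1 they were Desi1 (r = 0.98), Fam83h (r = 0.95), which encodes a protein that binds keratins, and Tmem43 (r = 0.94). For Tgm5 they were Kctd17 (r = 0.94), Txndc11 (r = 0.93) and Clstn1 (r = 0.92). Tgm7 was closest to Polg (r = 0.96), Slc22a21 (r = 0.96) and Ccnl2 (r = 0.95), which encode the mitochondrial DNA polymerase, a carnitine transporter and a cyclin of RNA processing. Tgm3 had the weakest likeness, with Tsen34 (r = 0.87), Coq9 (r = 0.87) and Tmem143 (r = 0.85). Of these 15 genes, 0 were altered between the genotypes, beside 10.3% of all genes. The points of all these correlations share their libraries, so depth and tissue makeup are common to both genes of a pair. These genes were also picked as the highest among 14533 listed genes over 12 mice. That choice by itself gives high values of r, and by how much was not tested.

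Within each genotype, mice with high endothelial marker sums had high Tgm2 and low Tgm7, though not in strict order. Of 8 endothelial markers 1 rose and 0 fell, near the 10.3% altered over all genes. All 8 had log2 fold changes above 0, and the median was 1.22. Their summed CPM ran from 10.6 to 159 in WT and from 50.1 to 247 in Pparg-/-epi mice. No marker was at 0 in any library. Emcn was the marker that rose, by 1.79 in log2 (adjusted p = 0.0340), while Flt1 was at 1.94 (adjusted p = 0.0784), Pecam1 at 1.42 (adjusted p = 0.250), Vwf at 1.30 (adjusted p = 0.143) and Cdh5 at 1.15 (adjusted p = 0.379). With Krt1 and Krt10 scaling 0 of the 8 were altered. Among WT mice the sum was highest in replicate 2 (159 CPM), where Tgm2 was highest, and 10.6 to 22.8 CPM in replicates 3, 4 and 6, where Tgm2 was lowest (2.24 to 4.84 CPM). In those 3 mice Tgm7 was at 38.3 to 45.3 CPM, against 19.3 to 25.4 CPM in the other 3. Among Pparg-/-epi mice, replicates 7, 8 and 9 had the highest endothelial sums (208 to 247 CPM), the highest Tgm2 (27.9 to 34.4 CPM) and the lowest Tgm7 (1.09 to 2.00 CPM). Replicates 7, 8 and 9 are also the mice of breeding numbers 192 and 195, all are female, and their RNA integrity numbers were 7.7 to 8.6.

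**Figure D5:**
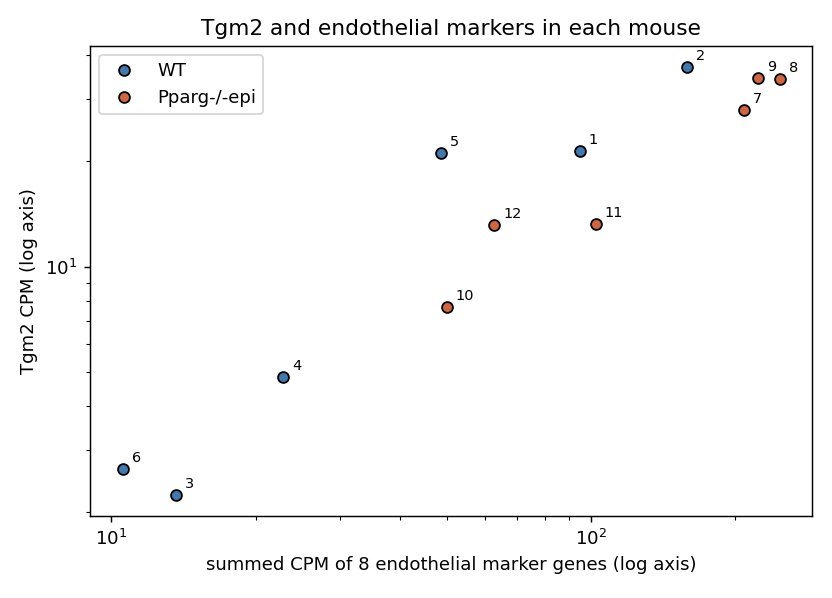
Tgm2 CPM against the summed CPM of 8 endothelial markers in each mouse, both on log axes, with WT in blue, Pparg-/-epi in orange and the replicate number beside each point. Tgm2 is high in the mice with high endothelial sums in both genotypes, though not in strict order, from 2.24 CPM in WT replicate 3 to 36.9 CPM in WT replicate 2.

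The range of endothelial sums that both genotypes reach, 50.1 to 159 CPM, held WT replicates 1 and 2 and Pparg-/-epi replicates 10, 11 and 12. There Tgm7 was at 19.3 and 23.0 CPM in WT and 3.99 to 11.1 CPM in Pparg-/-epi mice, Tgm3 at 16.0 and 17.0 CPM and at 53.2 to 80.8 CPM, and Tgm2 at 21.3 and 36.9 CPM and at 7.65 to 13.2 CPM. A fit chosen after seeing the data took the log2 endothelial sum as a covariate across all 12 mice. In it Tgm3 was at 1.75 (adjusted p = 0.00207) and Tgm7 at -2.21 (adjusted p = 0.00463). In the same fit Tgm2 was at -0.74 (adjusted p = 0.0517), Tgm5 at 0.11 (adjusted p = 0.62) and Tgm1 at 0.59 (adjusted p = 0.0172), which is under the size threshold. The endothelial markers all had log2 fold changes above 0 between the genotypes, so this fit cannot fully separate their sum from genotype. The part of endothelium in the levels of Tgm2, Tgm3 and Tgm7 was not tested beyond it.

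Of 9 markers of sebocytes, the lipid cells of the sebaceous gland, 6 fell and 0 rose. Over all genes 10.3% were altered and 5.08% were lower. The marker sums were 55.5 to 1270 CPM in WT and 40.3 to 117 CPM in Pparg-/-epi mice. The study reported most of these markers as reduced in the same libraries, so the direction of the list is not independent evidence. Fa2h, which hydroxylates fatty acids, was at 7.25 to 210 CPM in WT and at most 1.90 CPM in Pparg-/-epi mice (adjusted p = 9.15e-04). In WT mice the sebocyte sum was highest in replicates 1, 2 and 5 (455 to 1270 CPM), the 3 WT mice with the lowest Tgm7 and the highest endothelial sums. Basal keratinocyte markers had 1 of 5 altered, Krt14, which rose by 0.98 (adjusted p = 0.00559), and 0 of 5 suprabasal markers were altered. With Krt1 and Krt10 scaling Krt14 was no longer altered. Of fibroblast markers 0 of 6 were altered, with summed CPM of 1014 to 34533 in WT against 5324 to 11169 in Pparg-/-epi mice, and of macrophage markers 0 of 7, with 91.7 to 706 against 238 to 439. The part of these cell types in the levels of Tgm3 and Tgm7 was not tested.

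Tgm5 and Tgm7 stand 7830 bases apart on chromosome 2 on the same strand, with no listed gene between them, and differed in what was seen between the genotypes, 0.34 against -2.91. Tgm3 lies next to Tgm6, 62017 bases away. Of the 16 listed genes that stand nearest to a transglutaminase and are not among the 5, 0 were altered, beside 10.3% of all genes. None of them overlapped a transglutaminase. Next to Tgm7 on the other side, Lcmt2 was at -0.29 (adjusted p = 0.285) and Adal at -0.45 (adjusted p = 0.0407), under the size threshold. Next to Tgm3, Tgm6 was at 0.53 (adjusted p = 0.755) and Stk35 at -0.04 (adjusted p = 0.895).

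The other family members were scarce or not altered. Tgm4, the prostate transglutaminase, had 4 to 15 counts in WT mice against 0 to 9 in Pparg-/-epi mice (log2 fold change -0.79, adjusted p = 0.382), and 20.6% of its 75-base stretches occur in transcripts of other genes. Tgm6, a transglutaminase best known from the nervous system, had 4 to 205 counts in WT mice against 11 to 226 in Pparg-/-epi mice. F13a1, the A chain of coagulation factor XIII made by macrophages and platelets, was at 7.55 to 118 CPM in WT and 19.4 to 64.3 CPM in Pparg-/-epi mice (log2 fold change 0.06, SE 0.62, adjusted p = 0.967). Its highest value was in WT replicate 2, which also had the highest macrophage marker sum (706 CPM).

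Genes that encode what the enzymes cross-link differed by group. Of 37 listed genes for cornified envelope substrates, 19 rose and 0 fell, beside 5.19% and 5.08% of all genes. The median log2 fold change was 1.51, beside -0.01 over all genes. With Krt1 and Krt10 scaling 11 were higher and 0 lower, and without any 1 mouse 15 to 23 were altered. Several of these genes were picked by the study from the same libraries, so the direction of the list is not independent evidence. Sprr1b, a small proline-rich envelope protein, was at 1.61 to 28.6 CPM in WT and 83.2 to 173 CPM in Pparg-/-epi mice and rose by 3.65 on the log2 scale (SE 0.64, adjusted p = 0.00286). Sprr2d and Lce3e rose by 3.24 and 3.14, from few counts in WT mice, where Lce3e was at 0 in at least 1 mouse. Sprr and Lce genes have near-identical copies, so the split of reads among them is uncertain. Ivl, involucrin, and Hrnr, hornerin, both added after their values were seen, rose by 1.00 (adjusted p = 2.32e-04) and 1.57 (adjusted p = 0.00460). Their mean CPM was 319 and 384 in WT and 639 and 1142 in Pparg-/-epi mice. The 3 most abundant substrates were not altered, with Flg2 at -0.14 (adjusted p = 0.728), Lor, loricrin, at -0.06 (adjusted p = 0.905) and the plakin Ppl at -0.23 (adjusted p = 0.331).

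Of 15 desmosomal and keratin substrates 0 were altered, beside 10.3% of all genes, and this count was 0 to 2 without any 1 mouse. The median log2 fold change was -0.00. Krt10 was at -0.02 (adjusted p = 0.983), Krt1 at 1.02 (adjusted p = 0.101) and Krt77 at -0.39 (adjusted p = 0.256), and Dsp, desmoplakin, which was added after its values were seen, at -0.00 (adjusted p = 0.997).

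Of 12 genes for proteases and protease inhibitors, listed for a possible part in transglutaminase activation or turnover, 3 were higher and 0 lower. Over all genes 10.3% were altered and 5.19% were higher. The median log2 fold change of the list was 0.47. Capn2, a calpain protease, rose by 1.18 (adjusted p = 0.0366), Ctsc, cathepsin C, by 0.97 (adjusted p = 0.0176) and Furin, a proprotein convertase, by 0.76 (adjusted p = 0.0208), and each overlapped between the groups. Ctsl and Cast, added after their values were seen, had every Pparg-/-epi mouse above every WT mouse, as in 3.95% of all genes. They were under the size threshold, at 0.47 (adjusted p = 0.00351) and 0.38 (adjusted p = 0.00727). Cst6, the inhibitor cystatin M/E that also is an envelope substrate, was at 239 to 2416 CPM in WT and 1710 to 2678 CPM in Pparg-/-epi mice (log2 fold change 1.61, adjusted p = 0.0590). Ctsd, cathepsin D, was at 0.59 (adjusted p = 0.0498), just under the size threshold, and Ctsb at 0.44 (adjusted p = 0.353). The count of altered genes was 7 without WT replicate 2, 1 without WT replicate 4, Pparg-/-epi replicate 7 or Pparg-/-epi replicate 9, and 0 when scaled to Krt1 and Krt10, where the median was -0.03.

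The corneocyte lipid envelope, the ceramide layer that is bound to the protein envelope, had 1 of 12 genes higher and 0 lower, near the 10.3% altered over all genes, with a median log2 fold change of 0.03. Pnpla1, which makes the acylceramides of this layer, was at 71.3 to 95.2 CPM in WT and 107 to 158 CPM in Pparg-/-epi mice, with no overlap, and rose by 0.72 (SE 0.10, adjusted p = 9.65e-04). The lipid transporter Abca12 was at 0.07 (adjusted p = 0.819), Sdr9c7 at 0.03 (adjusted p = 0.946) and Ugcg at 0.03 (adjusted p = 0.943). With Krt1 and Krt10 scaling 0 of the 12 were altered.

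Of 14 transcription factors of keratinocyte differentiation 1 was lower and 0 higher, near the 10.3% altered over all genes, with a median log2 fold change of 0.15. Gata3 was at 448 to 1250 CPM in WT and 295 to 638 CPM in Pparg-/-epi mice and fell by 0.98 as a log2 fold change (adjusted p = 0.0238), a call that was lost without WT replicate 3, 4 or 6 or Pparg-/-epi replicate 7 or 9, when 0 of the 14 were altered. Klf4 was at -0.04 (adjusted p = 0.951) and Grhl1 at -0.27 (adjusted p = 0.265).

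Genes listed as hair follicle partners of Tgm3, 12 in number, had 0 altered, beside 10.3% of all genes, and a median log2 fold change of 1.39. Only Krt75, added after its values were seen, was below 0, at -1.26 (adjusted p = 0.220). The summed CPM of the 12 ran from 52.2 to 2372 in WT and from 173 to 4858 in Pparg-/-epi mice. Tchh, trichohyalin, was at 1.26 (SE 1.13, adjusted p = 0.506), and the root sheath keratins Krt71 and Krt25 at 1.43 (adjusted p = 0.502) and 1.60 (adjusted p = 0.418). The sums were highest in WT replicate 2 and Pparg-/-epi replicate 8, where Tgm3 was at 17.0 and 61.5 CPM, each near the median of its group. Without WT replicate 2, 3 of the 12 were altered, and 1 was without Pparg-/-epi replicate 8.

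Among 12 extracellular and signaling partners of Tgm2, 1 was higher and 0 lower, near the 10.3% altered over all genes, with a median log2 fold change of 0.28. Adgrg1, an adhesion receptor known to bind Tgm2, rose by 0.63 (SE 0.18, adjusted p = 0.0326), near the size threshold. None of the 12 was altered in female mice, on total counts without TMM, with Krt1 and Krt10 scaling, or without any of WT replicates 3, 4, 5 and 6 or Pparg-/-epi replicates 7, 8 and 9, and 2 were without WT replicate 2 or Pparg-/-epi replicate 10 or 12. Of the more abundant partners, Pdia3 was at 0.34 (adjusted p = 0.0240), Vim at 0.42 (adjusted p = 0.342) and Sdc4 at -0.41 (adjusted p = 0.0130), all under the size threshold.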

How the data were processed

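Libraries were made from 200 ng of RNA with a poly(A) kit and read as 2 x 75 bases. The deposited values are raw counts per gene. The authors aligned reads to mm10 with STAR 2.5.2b, left out reads of low quality or with several positions, counted with featureCounts (Subread 1.5.1) and did not normalize. Blank rows (2800) were dropped, and each of the 14533 genes had more than 0.5 CPM in at least 6 mice. The last pair of Pparg-/-epi columns was assigned to mice through the study's run sheet.

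TMM normalization and edgeR's quasi-likelihood test (edgeR 4.0.16, R 4.3.3) were run with genotype as the only term over all genes, with Benjamini-Hochberg adjustment. Intervals are fold change ± the t quantile times SE and cover spread between mice. Ratios added 0.5 to each count and were compared over all 924 splits. RPKM used the deposited gene length. Alternatives were the likelihood ratio test, DESeq2 1.42.0, other scalings, covariates, subsets and leaving out each mouse. On simulated counts the main test was checked for recovery of known changes. Named genes were the members, other family genes, their 2 nearest listed genes on each side, the 3 most alike, of each gene list the 3 largest altered and the 3 most abundant, and genes of a cell type list where it is described. Genes named outside this rule are marked in the text as added after their values were seen. The members and lists were chosen with earlier results of these data known. Ages are those of the labels and differ for some mice from those of the study's supplement, so the fit with age as a covariate holds for the labels' ages only. Figures were drawn with matplotlib 3.10.9.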

Additional observations from a re-analysis of the deposited data

Results flagged for a closer look

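In 1 of 16 groups of 6 mice tested (5 transglutaminases and 3 other family genes in each genotype), 1 mouse lay far from the others by Dixon's criterion, which chance alone meets in about 1 in 20 groups. Tgm6 was at 10.9 CPM in WT replicate 2, and the next highest WT mouse was at 3.97 CPM, a gap of 0.651 of the whole range. The same mouse had the highest Tgm2 of the 12 mice and the highest endothelial and macrophage marker sums of the WT mice, and the part of these in the value of Tgm6 was not tested.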

How the results depend on the processing

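Scaling to Krt1 and Krt10 put Tgm1 at -0.020, Tgm2 at -0.18 and Tgm5 at -0.16, below 0, and left Tgm3 at 1.39 and Tgm7 at -3.33, with 1 transglutaminase and 368 genes altered. In male mice Tgm2 was at -0.54, Tgm3 at 1.66 and Tgm7 at -1.98, with 0 transglutaminases and 18 genes altered. Without the WT mice of breeding number 226 Tgm1 was at 0.56, Tgm2 at -0.40, Tgm5 at 0.05 and Tgm7 at -2.27, with 1 transglutaminase and 389 genes altered. With the endothelial sum as a covariate, added after seeing the data, Tgm2 was at -0.74. The fit with breeding number as a term, also added after seeing the data, takes its genotype effect from WT replicate 2 and Pparg-/-epi replicate 10 alone. In it Tgm2 was at -2.27, Tgm3 at 2.25, Tgm5 at -0.105 and Tgm7 at -2.52, with 1 transglutaminase and 238 genes altered. In female mice 651 genes were altered and 0 pairs of ratios passed. Subsets hold fewer mice, and the cause of the other shifts was not tested.

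Without any 1 mouse, Tgm1 ranged from 0.27 to 0.44, Tgm2 from 0.33 to 1.06, Tgm3 from 1.68 to 2.02, Tgm5 from 0.26 to 0.40 and Tgm7 from -3.44 to -2.72, with 2 transglutaminases altered and 6 ratio pairs passing in each case and 1116 to 2249 genes altered (2249 without WT replicate 2). The ratio of Tgm1 over Tgm5 changed sign, at 0.083, 0.034, 0.011, 0.071 and 0.017, without WT replicate 3, WT replicate 4, Pparg-/-epi replicate 7, 8 or 9. Sex, RNA integrity and age as covariates, the likelihood ratio test, DESeq2, its size factors, unscaled totals and a filter at 1 CPM changed no call of the 5 genes. No paired analysis was run. The study calls the WT mice sibling controls, but the labels name no pairs. Breeding number 222 alone holds both genotypes, with 1 mouse of each.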
